A study of Mus musculus with 18 samples.

Results

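The change in gene expression from carcinogen-treated skin to papilloma was compared between mice with and without Zfp36 in keratinocytes. For every gene the measured quantity was the interaction, the log2 fold change from treated skin to tumor in ΔK14 cells minus the same change in fl/fl cells. All 12 RNA-seq libraries of treated skin and tumors were taken, of 18 columns in the series, with 3 libraries in each of 4 groups, and 17017 of 52636 genes had enough counts to be tested. A positive interaction means that a gene rose more, or fell less, towards the tumor in ΔK14 cells.

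Zfp36 encodes tristetraprolin (TTP), a zinc finger protein. It recognizes AU-rich elements (AREs) in the 3′ untranslated region (3′-UTR) of mRNAs and recruits the machinery that shortens the poly(A) tail, so that the mRNA decays faster. Many of its known targets encode cytokines, growth factors and other products that keratinocytes make for a short time after a stimulus. In the skin carcinogenesis protocol DMBA, a mutagen, starts the tumors, and repeated application of TPA, a phorbol ester that activates protein kinase C, promotes them.

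The Zfp36 fl/fl group carried floxed alleles and served as the control. The Zfp36 ΔK14 group carried the same alleles with a Cre recombinase under the keratin 14 promoter, which is active in basal keratinocytes and other cells of the epidermal lineage, hair follicle included. The treated groups held epidermal cells from nontumoral skin next to papillomas and the tumor groups held cells from papillomas, so that all 4 groups had received DMBA and TPA. According to the study's methods, flow cytometry selected live cells with EpCAM on their surface and without CD45, CD140a or CD31, which mark leukocytes, fibroblasts and endothelium. The labels instead give the source as whole skin and name the cells of the treated groups as tumoral keratinocytes too. The labels do not say whether the 3 libraries of a group came from separate animals, so the p-values measure only the spread between these libraries, which may be technical.

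Total counts ran from 2808550 to 7404684 and genes with at least 1 count from 19219 to 28145. One library stood apart. The first fl/fl tumor library (fl/fl tumor replicate 1) was the shallowest of the 12 and had the fewest genes, the largest share of counts in genes annotated as ribosomal RNA (10.9%, with 3.94% the lowest share) and the lowest weight (0.238) when libraries were weighted by their fit to the group means. Epidermal markers such as Krt14 and Trp63 were high in every group, and the sum over 9 of them ran from 7269 to 36480 CPM (read counts relative to a library size that was adjusted for composition). The summed leukocyte markers (18 symbols) ran from 18.2 to 47.9 CPM in fl/fl treated skin, 24.4 to 212 in ΔK14 treated skin, 28.9 to 43.0 in fl/fl tumors and 79.5 to 107 in ΔK14 tumors, while Ptprc, which encodes the leukocyte antigen CD45, did not exceed 1.47 CPM in any library. Cd74 and H2-Aa carried much of these sums, with Cd74 at 10.4 to 28.0 CPM in fl/fl tumors and 50.6 to 79.4 in ΔK14 tumors. The markers Cd68 and Csf1r did not exceed 5.22 CPM in any tumor and overlapped between the genotypes there. Fibroblast markers (10 genes) summed to between 426 and 968 CPM in treated skin and between 39.6 and 407 in tumors, and melanocyte markers (8 genes) to between 62.8 and 382 in treated skin and between 12.7 and 38.6 in tumors. Of the fibroblast markers, Dcn alone ran from 168 to 836 CPM in treated skin and reached at most 9.84 in tumors. In such bulk samples fewer cells of a type and less RNA per cell cannot be told apart.

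Zfp36 checked the genotype labels. It measured 373, 496 and 261 CPM in fl/fl treated skin, 26.5, 29.7 and 14.6 in ΔK14 treated skin, 226, 172 and 246 in fl/fl tumors and 17.6, 11.9 and 9.28 in ΔK14 tumors. Every ΔK14 library lay below every fl/fl library at both stages. Tests were quasi-likelihood F tests of edgeR with Benjamini-Hochberg adjustment over all genes tested. The genotype difference was −3.99 log2 in treated skin (edgeR adjusted p = 5.99e-04) and −4.06 in tumors (edgeR adjusted p = 6.36e-04), so the interaction of Zfp36 itself was −0.06 ± 0.44 (SE; edgeR adjusted p = 0.969), and its sign turned with the setting. Of the paralogs, which bind the same kind of element, Zfp36l1 had an interaction of −0.52 ± 0.33 (edgeR adjusted p = 0.523) and Zfp36l2 one of 0.68 ± 0.39 (edgeR adjusted p = 0.485). Zfp36l3 was not tested, with 2 counts in 1 fl/fl treated library and 0 counts in the 11 others. Plekhg2, the gene next to Zfp36, was higher in ΔK14 cells at both stages (3.16 log2 in treated skin and 3.65 in tumors) and had an interaction of 0.49 ± 0.53 (edgeR adjusted p = 0.740).

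Both genotypes went through a large change from treated skin to tumor, and few differences between the changes passed the test. In fl/fl cells 1619 genes rose and 2005 fell (9.51% and 11.8% of genes tested, 21.3% together, called at an edgeR adjusted p under 0.05 and over 2-fold), and in ΔK14 cells 1661 rose and 2666 fell (9.76% and 15.7%, 25.4% together). Of the genes called in both genotypes 2098 moved the same way and 4 moved opposite ways. The slope through the origin of the ΔK14 change on the fl/fl change across all genes tested was 0.817 (r = 0.724 across genes, which are not independent replicates). Noise in the fl/fl changes lowers such a slope, so it does not say which change was larger. Among the 2098 genes the median size of the change was 1.99 log2 in fl/fl and 2.13 in ΔK14, with 57.2% of them changing more in ΔK14. That share ran from 44.5% to 65.2% when single libraries were left out, falling under an even split without fl/fl tumor replicate 2 (44.5%) and without fl/fl treated replicate 1 (49.4%). Both changes were measured in separate libraries, with no control in common.

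The interaction was called for 2 genes, Tbx1 and Pfkfb3, or 0.0118% of those tested, both with a more positive change in ΔK14 cells. No gene was called with a more negative change. At an unadjusted p under 0.05 there were 2243 genes (13.2%), 989 of them more positive in ΔK14 (5.81%) and 1254 more negative (7.37%). Of all 17017 interactions, whatever their p, 7896 were positive. The number of calls turned on the libraries and the test. Without fl/fl tumor replicate 1 the interaction was called for 1352 of 17951 genes (7.53%), 626 more positive (3.49%) and 726 more negative (4.04%), whereas leaving out any other single library gave between 0 and 6 calls. With every library kept, DESeq2 called 230 genes, 101 of them more positive, and 222 of the 230 were among the 1352.

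**Figure D1:**
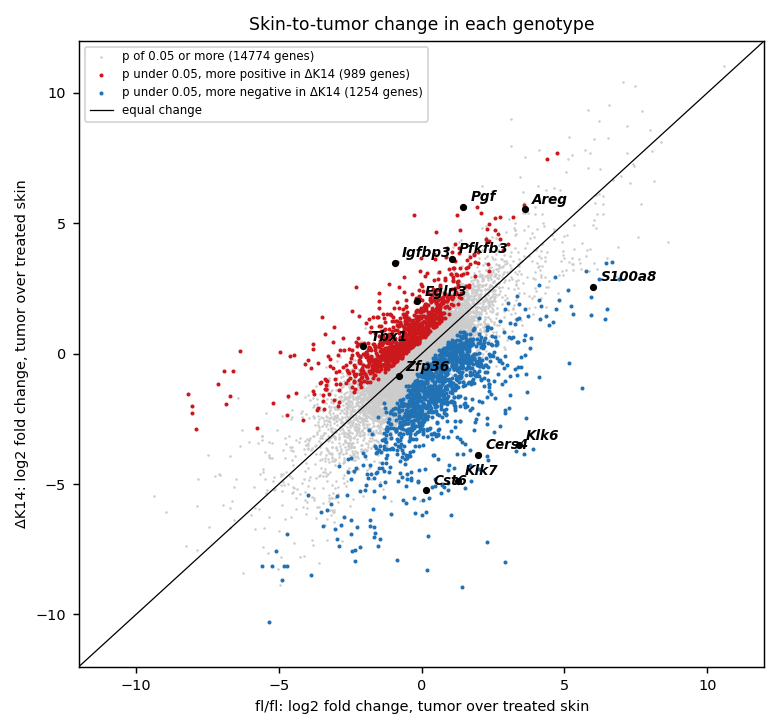
Each point is 1 of the 17017 genes tested, with its log2 fold change from treated skin to tumor in fl/fl cells on the horizontal axis and in ΔK14 cells on the vertical axis. Red and blue points are the 989 and 1254 genes with an unadjusted interaction p under 0.05, above and below the line of equal change. Tbx1 and Pfkfb3, the 2 genes called, lie above the line, and Zfp36 lies on it.

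The library that stood apart took a regular place among the fl/fl tumors. Over the 1254 genes with a more negative interaction, fl/fl tumor replicate 1 was the lowest of the 3 fl/fl tumors in 957 (76.3%), and over the 989 with a more positive interaction it was the highest in 637 (64.4%). Over all genes tested it was the lowest in 46% and the highest in 38.5%. On these genes, chosen by their p, its level thus lay mostly on the side of the ΔK14 tumors. Whether its depth, its ribosomal RNA content or the cells it held had a part in this was not tested.

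Tbx1 encodes a T-box transcription factor known from the development of the pharyngeal arches and from hair follicle stem cells. It measured 45.5, 48.9 and 46.6 CPM in fl/fl treated skin and 8.34, 13.4 and 11 in fl/fl tumors. In ΔK14 cells it measured 24.7, 33.3 and 29.6 CPM in treated skin and 35.9, 33.5 and 38.3 in tumors. The fl/fl libraries were the highest of the treated skin and the lowest of the tumors, and the genotypes did not overlap at either stage. Tbx1 fell by 2.07 log2 in fl/fl cells (edgeR adjusted p = 1.01e-04), whereas its change in ΔK14 cells was 0.29 (edgeR adjusted p = 0.245), giving an interaction of 2.36 ± 0.28 (edgeR adjusted p = 0.0217). Leaving out 1 library at a time gave interactions between 2.23 and 2.61 with adjusted p between 8.10e-04 and 0.137, and the call was kept only without fl/fl tumor replicate 1, fl/fl tumor replicate 2 or ΔK14 tumor replicate 1.

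Pfkfb3 encodes the enzyme that makes fructose 2,6-bisphosphate, the activator of the main control step of glycolysis, and it is a known target of hypoxia-inducible factors. It measured 13.1, 15.9 and 13.8 CPM in fl/fl treated skin and 9.61, 12.4 and 13.3 in ΔK14 treated skin. In tumors it measured 43.2, 23.1 and 24.0 CPM in fl/fl and 171, 142 and 130 in ΔK14. The genotypes overlapped in treated skin and were clearly apart in tumors, and the fl/fl tumor nearest to the ΔK14 tumors was replicate 1. Pfkfb3 rose in both genotypes, by 1.06 log2 in fl/fl (edgeR adjusted p = 0.00821) and by 3.64 in ΔK14 (edgeR adjusted p = 1.29e-05), with an interaction of 2.59 ± 0.35 (edgeR adjusted p = 0.0476). Without single libraries it ran from 2.46 to 2.92 with adjusted p from 3.73e-04 to 0.192, and the call was kept only without fl/fl tumor replicate 1.

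Both called genes hold the ARE heptamer TATTTAT in the longest annotated 3′-UTR of GENCODE vM21. The sites are printed because TTP acts on this element, together with those of 3 genes described below that had a more positive change without a call. Only genes that hold the heptamer are printed, and others with a more positive change, such as Lrp1, Cstf2t and Adam12, held none. The study had listed Areg and Vegfa among transcripts selected by an ARE score, so their sites are not independent evidence. Each line gives 27 bases of the transcribed strand, 5′ to 3′, with the heptamer in capitals and positions in GRCm38. Pfkfb3 holds 2 overlapping heptamers, both within its line, and Vegfa holds 3, of which the one inside the longer motif TTATTTATT is shown. Areg encodes amphiregulin, a ligand of the EGF receptor, Egln3 an oxygen-sensing prolyl hydroxylase and Vegfa the main growth factor of blood vessels.
Tbx1 3′-UTR, chr16:18581863-18581889, minus strand: aaggaagtggTATTTATtgttctccgc
Pfkfb3 3′-UTR, chr2:11472049-11472075, minus strand: gcagatgtgcTATTTATTTATttaata
Areg 3′-UTR, chr5:91148383-91148409, plus strand: atttaagtgtTATTTATtttatagctc
Egln3 3′-UTR, chr12:54179141-54179167, minus strand: gtcatgtcctTATTTATtttgtttatt
Vegfa 3′-UTR, chr17:46017167-46017193, minus strand: tgttatcattTATTTATtggtgctact

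The heptamer was searched on the transcribed strand only. Of the 12892 tested genes with an annotated 3′-UTR, 30.3% held it, beside 34.1% of the 897 such genes at an unadjusted p under 0.05 with a more positive interaction and 26.5% of the 705 with a more negative one. Median 3′-UTR length differed along with these shares, at 1352 bases over all genes, 1613 in the more positive and 1072 in the more negative group. With the longer motif TTATTTATT, which contains the heptamer, the shares were 8.11%, 9.14% and 7.66%. Among the genes called without fl/fl tumor replicate 1 the order turned, with the heptamer in 30.1% of the more positive and 31.5% of the more negative genes. Of the 12 genes with the smallest p in each direction that are described below, 6 of the more positive held it (Tbx1, Pfkfb3, Igfbp3, Egln3, Ero1l and Map1b) and 2 of the more negative (Igfbp5 and Cers4), as did 2 of 4 more negative genes without a size (Naaladl2 and Ror1).

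The 10 next genes by p with a more positive change in ΔK14 were not called. Igfbp3, a binding protein for insulin-like growth factors, measured 115, 222 and 88.8 CPM in fl/fl treated skin, 105, 39.6 and 77.0 in fl/fl tumors, 31.3, 73.3 and 73.0 in ΔK14 treated skin and 341, 753 and 899 in ΔK14 tumors. ΔK14 libraries were thus the lowest in treated skin and the highest in tumors, without overlap at either stage. Its interaction was 4.43 ± 0.69 (edgeR adjusted p = 0.0683). Lrp1, an endocytic receptor, had the same crossing with 192, 173 and 169 against 114, 129 and 140 CPM in treated skin (fl/fl first) and 97.2, 72.0 and 72.7 against 158, 296 and 291 in tumors, and an interaction of 2.11 ± 0.33 (edgeR adjusted p = 0.0683). Egln3 measured 89.1, 117 and 115 CPM in fl/fl and 37.2, 42.9 and 58.8 in ΔK14 treated skin, then 74.1, 104 and 110 in fl/fl and 237, 145 and 181 in ΔK14 tumors. It crossed in the same way, was called as rising in ΔK14 cells (2.02 log2) and not in fl/fl cells (−0.15), and had an interaction of 2.17 ± 0.34 (edgeR adjusted p = 0.0683).

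Ero1l, an oxidase of disulfide formation in the endoplasmic reticulum, overlapped between the genotypes in treated skin, where it measured 33.1, 28.2 and 36.5 CPM in fl/fl and 29.7, 41.2 and 41.6 in ΔK14. It rose in both genotypes, to 111, 85.6 and 92.7 CPM in fl/fl tumors and 354, 321 and 413 in ΔK14 tumors. Its interaction was 1.71 ± 0.27 (edgeR adjusted p = 0.0683). Cstf2t, a cleavage stimulation factor of mRNA 3′ end formation, fell to 1.96, 0.894 and 0.667 CPM in fl/fl tumors from 17.3, 15.3 and 15.0 in treated skin, against 12.1, 9.08 and 6.48 in ΔK14 tumors and 11.2, 12.1 and 16.7 in ΔK14 treated skin, with an interaction of 3.35 ± 0.50 (edgeR adjusted p = 0.0683). The others were Cdc42ep1, an effector of the small GTPase Cdc42 (1.81 ± 0.31), Hspg2, which encodes the basement membrane proteoglycan perlecan (2.03 ± 0.35), Map1b, a microtubule-associated protein (3.39 ± 0.63), Rapgef3, an exchange factor for Rap activated by cyclic AMP (4.18 ± 0.78) and Adam12, a metalloprotease (4.07 ± 0.77), with edgeR adjusted p between 0.114 and 0.148. In all 12 genes the ΔK14 tumors lay above the fl/fl tumors without overlap, as they did in 9.33% of all genes tested, and in 6 of them the treated ΔK14 libraries lay below the fl/fl ones without overlap (7.17% of all genes). Since the 12 were chosen by their p from these same values, this separation follows in part from the choice.

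**Figure D2:**
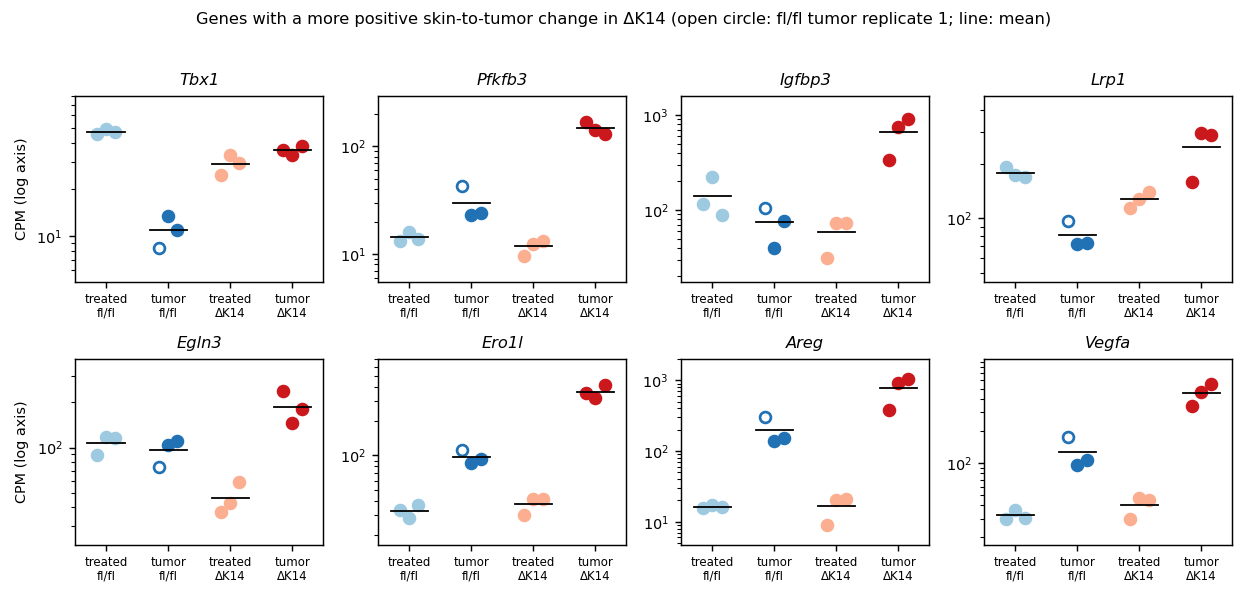
CPM of 8 genes with a more positive skin-to-tumor change in ΔK14 are plotted on log axes, with 1 circle for each of the 3 libraries of a group, an open circle for fl/fl tumor replicate 1 and a line at the group mean. Tbx1 is lower in tumors than in treated skin in fl/fl and slightly higher in ΔK14, Igfbp3, Lrp1 and Egln3 cross between the stages, and Pfkfb3, Ero1l, Areg and Vegfa are higher in tumors of both genotypes and highest in ΔK14 tumors.

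Genes with the smallest p among those with a more negative change in ΔK14 included products of the differentiated epidermis and its glands. None was called (smallest edgeR adjusted p 0.0886). Klk7, a kallikrein protease that degrades desmosomes as cells are shed from the skin surface, measured 43.7, 28.0 and 12 CPM in fl/fl and 41.8, 160 and 102 in ΔK14 treated skin. In tumors it measured 14.2, 96.1 and 88.4 CPM in fl/fl and 1.49, 3.36 and 5.25 in ΔK14. The ΔK14 tumors were the lowest of the 12 libraries, and of the fl/fl tumors replicate 1 lay nearest to them. Klk7 fell by 4.88 log2 in ΔK14 (edgeR adjusted p = 8.65e-04) against a change of 1.26 in fl/fl (edgeR adjusted p = 0.152), an interaction of −6.14 ± 1.01 (edgeR adjusted p = 0.0886). When fl/fl tumor replicate 1 was left out it was −6.59 ± 0.80 (edgeR adjusted p = 0.001).

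Klk6, a related protease, moved in opposite directions in the genotypes. It rose by 3.39 log2 in fl/fl (edgeR adjusted p = 0.0109) and fell by 3.51 in ΔK14 (edgeR adjusted p = 0.0100). It measured 4.63, 1.72 and 0.802 CPM in fl/fl and 6.23, 45.5 and 9.55 in ΔK14 treated skin, then 5.40, 34.6 and 37.0 in fl/fl and 2.33, 1.35 and 1.75 in ΔK14 tumors. The order of the genotypes was inverted between the stages with no overlap at either. The interaction was −6.90 ± 1.23 (edgeR adjusted p = 0.124). Cst6, which encodes the cysteine protease inhibitor cystatin M/E of the cornified layer, measured 4.42, 198 and 239 CPM in fl/fl tumors, so that replicate 1 lay among the ΔK14 tumors (4.03, 5.38 and 5.08) and away from the 2 other fl/fl tumors. In treated skin it was at 195, 125 and 77.6 CPM in fl/fl and 115, 253 and 182 in ΔK14, and its interaction of −5.40 ± 1.19 (edgeR adjusted p = 0.193) became −5.95 ± 0.52 (edgeR adjusted p = 3.24e-04) without that replicate.

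Cers4, a ceramide synthase, and Mgll, which splits monoacylglycerols, had the same split among the fl/fl tumors. Cers4 measured 76.8, 56.0 and 52.2 CPM in fl/fl and 50.0, 74.8 and 39.2 in ΔK14 treated skin, and 6.38, 300 and 422 in fl/fl and 5.73, 4.37 and 1.23 in ΔK14 tumors (interaction −5.85 ± 1.29, edgeR adjusted p = 0.193). Mgll measured 18.2, 126 and 212 CPM in fl/fl tumors against 4.88, 9.92 and 4.55 in ΔK14 tumors (−4.26 ± 0.94, edgeR adjusted p = 0.193). Nfkbiz, an atypical inhibitor of NF-κB whose mRNA is a known target of decay, was less divided. Its fl/fl tumors measured 365, 484 and 467 CPM and its ΔK14 tumors 197, 264 and 236, after 249, 296 and 238 in fl/fl and 346, 379 and 368 in ΔK14 treated skin. Its genotypes crossed without overlap at either stage, with an interaction of −1.40 ± 0.25 (edgeR adjusted p = 0.124). Fabp5, the epidermal fatty acid binding protein, rose in both genotypes, by 2.73 log2 in fl/fl and 1.25 in ΔK14 (interaction −1.48 ± 0.33, edgeR adjusted p = 0.196), from a lower level in fl/fl treated skin (184 to 211 CPM against 348 to 460).

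The other named genes of this kind were Chil1, a chitinase-like protein (−5.95 ± 1.13), Igfl3 (−5.90 ± 1.18), Dmd, which encodes dystrophin (−3.89 ± 0.79), Igfbp5, a binding protein for insulin-like growth factors (−5.56 ± 1.18) and Psapl1 (−3.65 ± 0.81), with edgeR adjusted p between 0.148 and 0.193. In 9 of these 12 genes the ΔK14 tumors lay below the fl/fl tumors without overlap (6.08% of all genes tested), and in 4, Klk6, Chil1, Nfkbiz and Fabp5, the ΔK14 treated libraries lay above the fl/fl ones without overlap (4.41%). Here too the separation follows in part from the choice by p. In 11 of the 12 fl/fl tumor replicate 1 was the lowest fl/fl tumor, and in 1, Fabp5, the highest. Naaladl2, Ror1, Faah and Vnn3 ranked among them but had at most 3 counts in every ΔK14 tumor, so no size is given. In fl/fl tumors Ror1, a receptor tyrosine kinase-like protein, measured 1.47, 29.8 and 32.0 CPM and Faah, which hydrolyzes fatty acid amides, 1.47, 19.5 and 16.7, with replicate 1 the lowest of the 3 in both.

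**Figure D3:**
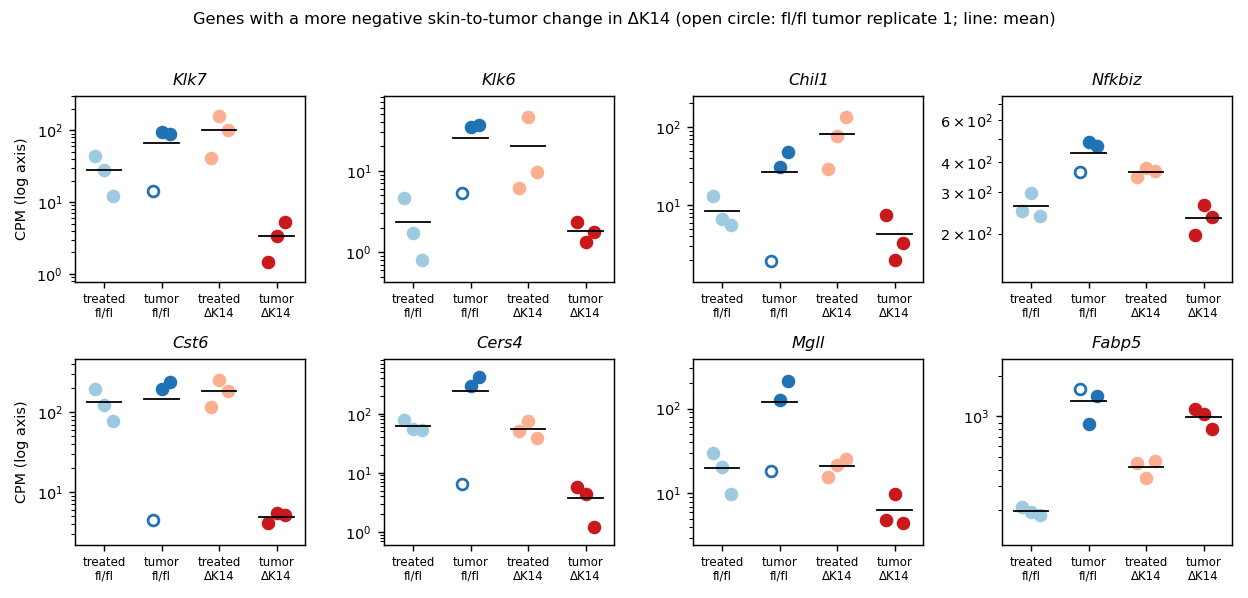
CPM of 8 genes with a more negative skin-to-tumor change in ΔK14 are plotted on log axes, with 1 circle for each of the 3 libraries of a group, an open circle for fl/fl tumor replicate 1 and a line at the group mean. The open circle lies near the 3 ΔK14 tumors for Cst6 and Cers4, below them for Chil1 and between the groups for Klk7, Klk6 and Mgll.

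An interaction can arise from the tumors, from the treated skin or from both. Of the 989 genes more positive in ΔK14 at an unadjusted p under 0.05, 452 were higher in tumors than in treated skin in ΔK14 and lower in fl/fl, 284 were higher in tumors in both and 253 lower in both. Of the 1254 more negative genes 653 were lower in ΔK14 tumors and higher in fl/fl tumors than in the skin of the same genotype, 395 lower in both and 206 higher in both. The genotype difference was larger in tumors than in treated skin for 87.3% of the more positive and 87.5% of the more negative genes, and the 2 differences had opposite signs for 87.8% and 73.8%. These shares follow in part from the choice by p, since both differences enter the interaction. The same shares over all genes tested are not given, so no excess over them can be read from these values. Over all genes tested, 4 differed between genotypes in treated skin (0.0235% called: S100a8, S100a9, Plekhg2 and Zfp36) and 286 in tumors (1.68% called, with 125 or 0.735% higher and 161 or 0.946% lower in ΔK14), the latter becoming 2542 (14.2%) without fl/fl tumor replicate 1 and between 8 and 27 without each of several other libraries.

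**Figure D4:**
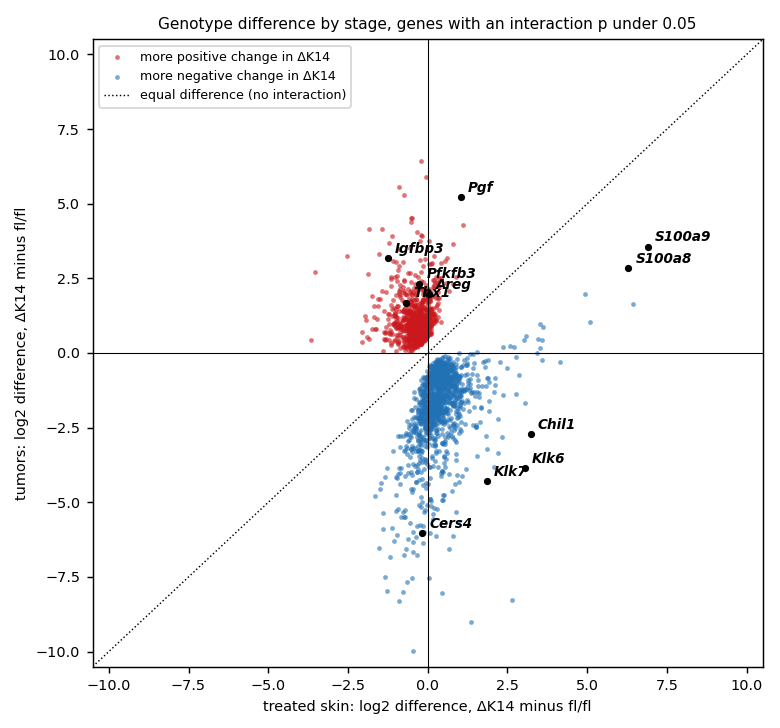
For the 2243 genes with an unadjusted interaction p under 0.05, the log2 genotype difference (ΔK14 minus fl/fl) is plotted with treated skin on the horizontal axis and tumors on the vertical axis, in red where the change was more positive in ΔK14 and in blue where it was more negative. Most points spread along the vertical axis, whereas S100a8 and S100a9 lie to the right with a positive difference at both stages.

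The study names 16 candidate genes, among them growth factors, cytokines and proteases. All but Cxcl2, which its text names for whole skin, were named from these samples, so their direction is not independent evidence. Of the 14 tested, 13 had a positive interaction and 10 were more positive at an unadjusted p under 0.05 (5.81% of all genes), with a median of 1.76 beside −0.05 over all genes tested, and none was called with every library. All 14 were called as rising in ΔK14 cells and 9 in fl/fl cells (9.76% and 9.51% of all genes). Without fl/fl tumor replicate 1 the interaction was called for 6 of them (3.49% of all genes more positive). Areg measured 15.4, 17.2 and 16.2 CPM in fl/fl and 9.08, 20.1 and 20.9 in ΔK14 treated skin, and 308, 139 and 153 in fl/fl and 383, 914 and 1056 in ΔK14 tumors. Treated skin overlapped and tumors did not, replicate 1 was the highest fl/fl tumor, and the interaction was 1.93 ± 0.58 (edgeR adjusted p = 0.224). Pgf, placental growth factor, a ligand of VEGF receptor 1, was near absent outside the ΔK14 tumors, at most 1.47 CPM in the 9 other libraries and 19.9, 37.5 and 53.6 in ΔK14 tumors (4.19 ± 1.08, edgeR adjusted p = 0.207).

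Vegfa rose in both genotypes, from between 29.7 and 47.3 CPM in treated skin to 178, 95.8 and 108 in fl/fl tumors and 344, 466 and 550 in ΔK14 tumors (1.5 ± 0.38, edgeR adjusted p = 0.207). Inhba, the subunit of activin A, reached 74.6, 100 and 53.0 CPM in fl/fl and 164, 364 and 375 in ΔK14 tumors from at most 9.12 in treated skin (2.12 ± 0.61, edgeR adjusted p = 0.214). For both genes the tumors did not overlap. Sema6d (2.60 ± 0.61) and Sema4d (1.40 ± 0.39) encode semaphorins, guidance ligands of plexin receptors. Mmp9, a gelatinase, had an interaction of 3.06 ± 1.36 that was 0.01 without fl/fl treated replicate 1, and Lif (1.67 ± 0.69) and Tnf (1.54 ± 0.70) are cytokines whose mRNAs TTP is known to bind. The 4 members at a higher p were Il1a (1.84 ± 1.17), the chemokine gene Cxcl1 (0.77 ± 0.55), Ereg, which encodes the EGF receptor ligand epiregulin (0.53 ± 0.97), and Cxcl2 (−0.18 ± 1.0). Ereg and Cxcl2 rose in both genotypes, by 7.17 and 6.99 log2 in fl/fl and 7.71 and 6.81 in ΔK14. Csf2 and Il1b had too few counts to be tested, Csf2 with 2, 10 and 34 counts in ΔK14 tumors, 1 count in 1 ΔK14 treated library and 0 in the others.

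The 5 genes the study names for treated skin all had a negative interaction at an unadjusted p under 0.05 (7.37% of all genes), with a median of −3.44 and no call. They were named for a genotype difference in these same treated samples. That difference enters the interaction with a minus sign, so their direction is not independent evidence. S100a8 and S100a9 encode the subunits of calprotectin, an alarmin made by stressed keratinocytes and by neutrophils. S100a8 measured 1.32, 2.59 and 0.802 CPM in fl/fl and 32.7, 75.7 and 239 in ΔK14 treated skin, then 119, 45.2 and 126 in fl/fl and 774, 760 and 525 in ΔK14 tumors. ΔK14 libraries were higher at both stages without overlap, and the negative interaction of −3.44 ± 0.93 (edgeR adjusted p = 0.207) came with a larger genotype difference in treated skin (6.28 log2) than in tumors (2.84). S100a9 had the same order (−3.34 ± 1.16, edgeR adjusted p = 0.271), as did Serpinb3a, a protease inhibitor (−2.97 ± 1.31, edgeR adjusted p = 0.361). Without ΔK14 treated replicate 3 the interaction was −1.96 for S100a9 and −1.21 for Serpinb3a, and that of Serpinb3a was −1.74 without fl/fl tumor replicate 1. Chil1 and Klk6, by contrast, were higher in ΔK14 treated skin and lower in ΔK14 tumors by their group means. Chil1 measured 1.96, 31.2 and 47.3 CPM in fl/fl tumors and 7.43, 2.02 and 3.33 in ΔK14 tumors. Its fl/fl tumor replicate 1 thus lay below all 3 ΔK14 tumors. The summed leukocyte markers were also highest in a ΔK14 treated library and ranged higher in ΔK14 than in fl/fl tumors. Much of these sums was Cd74 and H2-Aa, which reached 165 and 37.6 CPM in ΔK14 treated skin. The part of the leukocyte markers in the S100a8 and S100a9 values was not tested. The neutrophil marker Ly6g had at most 2 counts in any of the 12 libraries.

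Genes of the response to low oxygen leaned towards a larger rise in ΔK14. Of 22 tested hypoxia targets outside glycolysis, 17 rose in ΔK14 and 8 in fl/fl cells (9.76% and 9.51% of all genes). Their interaction was positive in 20, at an unadjusted p under 0.05 in 12 of these (5.81% of all genes tested were more positive at that level), and the median was 1.12. Besides Egln3, Ero1l and Vegfa, Mxi1, an antagonist of Myc (1.66 ± 0.32, edgeR adjusted p = 0.148), and Adm, which encodes the vessel-dilating peptide adrenomedullin (2.11 ± 0.47, edgeR adjusted p = 0.196), had the smallest p. Mxi1 measured between 34.9 and 51.2 CPM in treated skin, 49.6, 73.5 and 51.3 in fl/fl tumors and 131, 175 and 209 in ΔK14 tumors. Car9, a carbonic anhydrase, went the other way (−2.05 ± 0.91, edgeR adjusted p = 0.361) with 6.87, 36.5 and 59.3 CPM in fl/fl and 13.6, 9.59 and 15.2 in ΔK14 tumors, and was picked out after its values were seen. In the glycolysis list 21 of 23 interactions were positive with a median of 0.54, but Pfkfb3 alone was at an unadjusted p under 0.05. Leaving out fl/fl tumor replicate 1, 11 hypoxia targets were called as more positive (3.49% of all genes) and 1 as more negative (4.04%), and 5 glycolysis genes as more positive.

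Angiogenic factors overlapped with these lists. Over all genes tested 5.81% were more positive and 7.37% more negative at an unadjusted p under 0.05, which is the level used for the counts that follow. Of 20 angiogenic factors tested, 8 were more positive and 1, the growth factor gene Fgf2, more negative (−2.61, named after its value was seen), with a median of 0.82. Among 23 proteases of invasion and their inhibitors 5 were more positive and 1 more negative (median 0.65), with Adam12, Mmp14, a membrane-bound collagenase (1.54 ± 0.40), and Serpine2, an inhibitor of serine proteases (1.94 ± 0.54), at the smallest p. Of 22 semaphorins and plexins 7 were more positive and 2 more negative (median 0.53). Sema4b measured between 54.3 and 83.9 CPM in fl/fl tumors and both treated groups, and 134, 189 and 266 in ΔK14 tumors (1.67 ± 0.34, edgeR adjusted p = 0.153). Sema3b was opposite, with 0.491, 15.8 and 20.01 CPM in fl/fl and 1.06, 1.51 and 1.23 in ΔK14 tumors (−3.85 ± 0.97, edgeR adjusted p = 0.207), and its fl/fl tumor replicate 1 lay below the ΔK14 tumors. Known TTP target mRNAs had a median of 0.77 with 6 more positive and 1 more negative of 25 tested, and cytokines and chemokines a median of 0.77 with 3 more positive of 23. These lists share members with the candidate genes. The interaction of the fibroblast markers was positive in 8 of 10 with a median of 0.77 (0.40 to 2.01 without single libraries). Their summed level ran from 426 to 696 CPM in fl/fl and 461 to 968 in ΔK14 treated skin, and from 93.0 to 212 in fl/fl and 39.6 to 407 in ΔK14 tumors. Dcn, which carried much of the sums in treated skin, was more negative (−2.93 ± 0.93, edgeR adjusted p = 0.248). Fbn1 was more positive (2.99 ± 0.95, edgeR adjusted p = 0.248). The part of the fibroblast markers in these lists was not tested.

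Genes of basal keratinocytes, which anchor the epidermis to the basement membrane, had a median interaction of 1.22, and 7 of 16 were more positive at an unadjusted p under 0.05 (5.81% of all genes tested) with none more negative. Lama3, a chain of laminin 332, rose in both genotypes, from between 132 and 223 CPM in treated skin to 779, 462 and 510 in fl/fl tumors and 916, 1943 and 1938 in ΔK14 tumors (1.51 ± 0.43, edgeR adjusted p = 0.208). Itgb4, the integrin of hemidesmosomes, measured 976, 259 and 248 CPM in fl/fl tumors and 1050, 1273 and 1645 in ΔK14 tumors (2.04 ± 0.71, edgeR adjusted p = 0.273). For both genes fl/fl tumor replicate 1 was the fl/fl tumor nearest to the ΔK14 tumors. Krt14 and Krt5, the keratins of the same layer, showed this place too, Krt5 with 11853, 2555 and 2855 CPM in fl/fl tumors and 9409, 8347 and 9288 in ΔK14 tumors, and an interaction of 0.85 ± 0.77 (edgeR adjusted p = 0.673). Without fl/fl tumor replicate 1 the list's median was 1.76 and 9 of 16 were called as more positive (3.49% of all genes).

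Genes of lipid synthesis had the most negative interactions among the pathways with over 10 tested members. Of 24 sebaceous gland and fatty acid synthesis genes, 14 rose in fl/fl and 2 in ΔK14 cells (9.51% and 9.76% of all genes), and 13 had a more negative interaction at an unadjusted p under 0.05 (7.37% of all genes tested) with none more positive. The list's median change was 1.73 log2 in fl/fl and −0.47 in ΔK14, and its median interaction −1.62. Far2, which reduces fatty acids to alcohols for wax, measured 57.1, 37.1 and 30.5 CPM in fl/fl and 34.7, 66.6 and 39.3 in ΔK14 treated skin, then 23.1, 412 and 635 in fl/fl and 25.0, 27.6 and 24.7 in ΔK14 tumors. Its fl/fl tumor replicate 1 lay below all ΔK14 tumors, while the 2 other fl/fl tumors stood well above every other library. The interaction was −3.97 ± 1.03 (edgeR adjusted p = 0.207), and −4.51 ± 0.42 (edgeR adjusted p = 3.75e-04) without that library. Scd1, a fatty acid desaturase named after its values were seen, had the same form with 192, 3133 and 6184 CPM in fl/fl and 187, 119 and 190 in ΔK14 tumors (−4.00 ± 1.07, edgeR adjusted p = 0.207). Elovl3, an elongase of sebaceous fatty acids, had 0.491, 74.4 and 104 CPM in fl/fl tumors and at most 0.505 in ΔK14 tumors, at most 3 counts in each, so no size is given. With that library left out, 14 of 25 tested members were called as more negative (4.04% of all genes) and 1 as more positive (3.49%).

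Cholesterol synthesis genes differed by less and more evenly. Of 22 tested, 12 rose in fl/fl and 2 in ΔK14 cells (9.51% and 9.76% of all genes), and 14 had a more negative interaction at an unadjusted p under 0.05 (7.37% of all genes) with none more positive. The median was −1.0, and without fl/fl tumor replicate 1 it was −1.15 and 12 were called (4.04% of all genes). Fdps, which makes farnesyl diphosphate, measured 51.5, 47.6 and 46.2 CPM in fl/fl and 88.8, 62.8 and 51.5 in ΔK14 treated skin, and 87.3, 90.2 and 144 in fl/fl and 51.8, 53.2 and 65.6 in ΔK14 tumors. The genotypes were inverted between the stages, and here fl/fl tumor replicate 1 lay beside replicate 2. The interaction was −1.40 ± 0.34 (edgeR adjusted p = 0.207). Nsdhl (−1.39 ± 0.36) and Lss, lanosterol synthase (−1.77 ± 0.47), enzymes further along the same route, were next by p.

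Hair follicle and differentiation genes varied more. Of 29 hair follicle genes tested, 19 fell in fl/fl and 21 in ΔK14 cells (11.8% and 15.7% of all genes). The median interaction was −0.74, with 7 more negative (7.37% of all genes) and 1, Tbx1, more positive (5.81%) at an unadjusted p under 0.05. Krt79, a keratin of the follicle opening and sebaceous duct, measured 756, 567 and 191 CPM in fl/fl and 347, 993 and 1445 in ΔK14 treated skin, and 11.3, 722 and 804 in fl/fl and 22.1, 9.08 and 7.70 in ΔK14 tumors (−6.20 ± 1.46, edgeR adjusted p = 0.205). Replicate 1 of the fl/fl tumors again lay among the ΔK14 tumors. Of 22 differentiation and cornified envelope genes 4 were more negative and none more positive (median −0.71), led by Rptn, which encodes repetin (−4.70 ± 1.30, edgeR adjusted p = 0.207), and Flg, which encodes filaggrin (−4.40 ± 1.55, edgeR adjusted p = 0.275, and −7.36 without ΔK14 tumor replicate 2). Among 9 stress and tumor keratins Krt6b was more negative (−2.57 ± 1.03) from a higher level in ΔK14 treated skin, with 1872, 223 and 186 CPM in fl/fl tumors and an interaction of −0.67 without replicate 1 of these, and Krt8, a keratin of simple epithelia at no more than 5.05 CPM, more positive (2.35 ± 0.61).

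In several groups of genes few or no members passed an unadjusted p under 0.05. Over all genes tested 5.81% were more positive and 7.37% more negative at that level, and 7896 of 17017 interactions were positive. The TTP family and mRNA decay machinery (16 tested, median 0.04), cytoplasmic ribosomal proteins (28, −0.15) and RAS and MAPK feedback genes (17, −0.04) had no member at an unadjusted p under 0.05. Proliferation genes had 1 of 26, Aurka, a mitotic kinase (1.08 ± 0.45, edgeR adjusted p = 0.327), with 23 positive and a median of 0.30 that became 0.95 without fl/fl tumor replicate 1 and ranged down to 0.00481 without other libraries. Immediate early genes had a median of 0.06, with Ier3 more positive (1.52 ± 0.52) and the transcription factor genes Egr2 (−2.20 ± 0.56) and Egr3 (−1.20 ± 0.53) more negative. EGF receptor ligands had a median of 0.16, with Areg and Epgn (1.20 ± 0.51) more positive and Nrg4, a neuregulin that binds ERBB4, more negative (−1.67 ± 0.50). Glutathione and NRF2 targets had a positive interaction in 16 of 22 with a median of 0.32, and 1 member was more positive, the cystine transporter gene Slc7a11 (1.70 ± 0.64), and 2 more negative. Without fl/fl tumor replicate 1 their median was 0.62, with 5 called as more positive and 2 as more negative (3.49% and 4.04% of all genes).

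**Figure D5:**
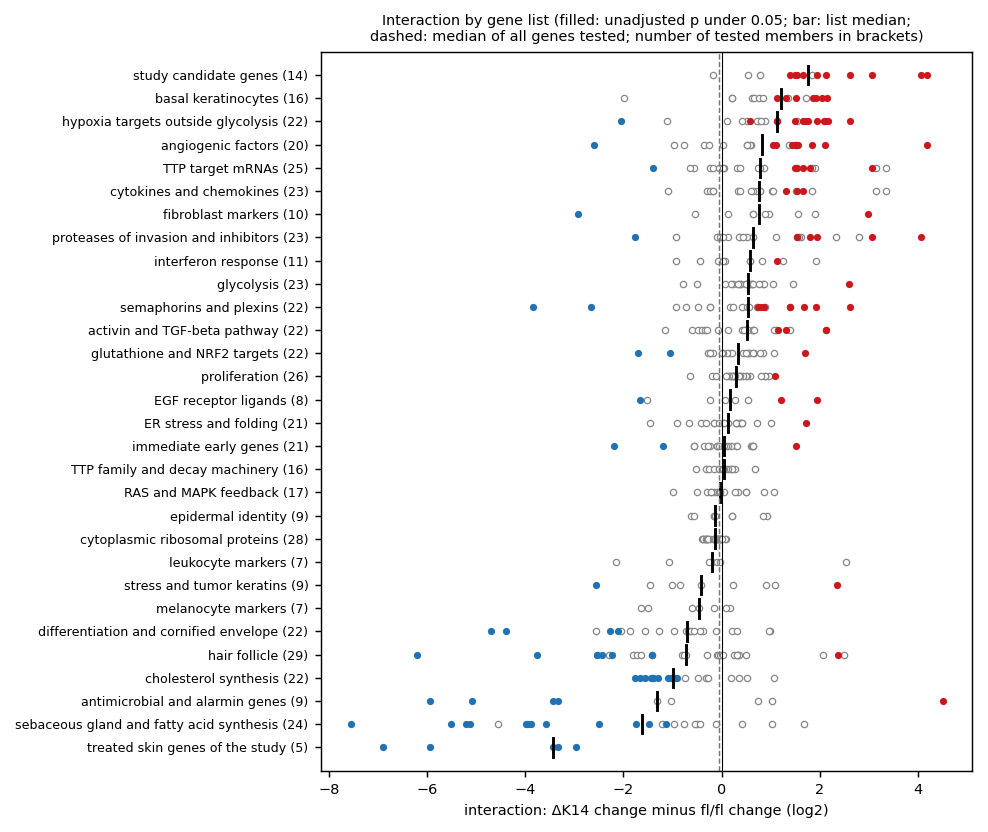
Each row is a gene list with at least 5 tested members, ordered by its median interaction, and each circle is a gene placed at its interaction (ΔK14 change minus fl/fl change, log2). Filled circles mark an unadjusted p under 0.05, bars the list medians and the dashed line the median of all genes, −0.05. Hypoxia and basal keratinocyte lists lie to the right of the dashed line and sebaceous, fatty acid and cholesterol synthesis to its left.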

How the data were processed

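RNA-seq was done on 18 samples, of which the 12 treated skin and tumor samples were analyzed here. The deposited values were raw counts, made by the authors from Ovation SoLo libraries sequenced on an Illumina HiSeq. The submitters' processing notes name Trimmomatic 0.36, STAR 2.5.3, HTSeq 0.9.1, DESeq2 and mm10 without saying what each did, and the study's methods name FastQC and edgeR for these cells. The strand setting, annotation release and removal of duplicates are not given in the sources used here, so values of overlapping, antisense and near-identical genes are uncertain, and SEs do not separate PCR duplicates from molecules.

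Counts were tested with edgeR 4.0.16 and limma 3.58.1, run under R 4.3.3. Genes were filtered by filterByExpr on the groups, scaled by TMM and fitted once for the 12 libraries, and the quasi-likelihood F test, two-sided, was applied to the interaction, to both stage changes and to both genotype differences. P values were adjusted by Benjamini-Hochberg over all 17017 genes tested, and calls needed both an adjusted p under 0.05 and a log2 size over 1. The ± values are SEs of the fitted log2 value, n = 3 libraries per group. CPM were on TMM-scaled library sizes. A gene with at most 3 counts in every library of a group was given no size. Motifs were counted in the longest 3′-UTR per gene of GENCODE vM21 on GRCm38. The procedure was tested on simulated data.

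Named genes were Zfp36 and its paralogs, Plekhg2, the genes the study names, the 12 with the smallest p in each direction and up to 3 per list with the smallest p. Leaving out predicted genes was part of this rule. The genes, lists and tests were chosen with earlier results of these data known. Lists are described by counts and medians, without a test. Alternatives were DESeq2 1.42.0, the likelihood ratio test, limma voom with quality weights, RLE scaling, other filters, all groups in 1 fit, a block for the replicate number and fits without each library in turn. Columns of mock ΔK14 replicates 2 and 3 were identical and entered the fit of all groups once. The authors' own tables of fold changes and p-values were not used.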

Additional observations from a re-analysis of the deposited data

Results flagged for a closer look

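Tbx1 and Pfkfb3 were singled out because the test of the difference between the changes of the 2 genotypes passed for them and for no other gene. Tbx1 had an interaction of 2.36 log2 (edgeR adjusted p = 0.0217, 0.0118% of genes called). All 3 fl/fl tumors lay below all 3 fl/fl treated skin libraries. All 3 ΔK14 tumors lay above all 3 ΔK14 treated skin libraries, but the nearest were at 33.5 and 33.3 CPM. The change of Tbx1 in ΔK14 cells, 0.29 log2, was not called (edgeR adjusted p = 0.245). Pfkfb3 had an interaction of 2.59 log2 (edgeR adjusted p = 0.0476), with all 3 tumors above all 3 treated skin libraries in both genotypes.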

How the results depend on the processing

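The number of interaction calls, 2 in edgeR's quasi-likelihood test of the 12 libraries (2243 genes at an unadjusted p under 0.05), moved with most settings. It was 230 in DESeq2, 378 in the likelihood ratio test, 2095 with limma voom and quality weights, 1003 without a low-count filter, 1 with RLE scaling, 1 at a mean count of at least 10, 0 with all groups in 1 fit and 2 without ribosomal RNA genes. Leaving out 1 library gave 0 to 1352 calls, the highest without fl/fl tumor replicate 1. Counting that test, Tbx1 was called under 12 settings and Pfkfb3 under 7. Genotype differences in treated skin, 4 with every library, numbered 24, 49, 170 and 2 in DESeq2, the likelihood ratio test, without a filter and with all groups in 1 fit, and 1 to 6 without single libraries. Those in tumors, 286 with every library, numbered 883, 1224, 1735 and 122 in the same settings, 2518 with voom weights and 8 to 2542 without single libraries. Calls of the stage changes stayed within 1.5 times their number in all settings. The slope of the changes ran from 0.659 to 0.822 without single libraries and was 0.443 without a filter. The cause of these shifts was not tested.

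The interaction of Zfp36 turned from −0.06 to 0.00862 without a filter and 0.00433 with all groups, and ran from −0.33 to 0.14 without single libraries. That of Ereg was −0.35 with voom weights and −0.78 to 1.68 without single libraries, and that of Cxcl2 −0.61 to 0.95. None of these passed a test. The other 76 of 79 named genes followed kept their sign in every setting run, and 12 of them moved by over 1.5 times without 1 library, among them Mmp9, Krt6b, Serpinb3a, S100a9 and Flg as given above, Tnf (0.97 without ΔK14 tumor replicate 3), Slc7a11 (0.97 without fl/fl treated replicate 3) and Egr3 (−0.79 without fl/fl tumor replicate 3). Serpinb3a was at −0.78 and Krt6b at −1.05 with voom weights. Krt5, Car9, Scd1 and Fgf2 were not followed. Without fl/fl tumor replicate 1, 52 of the 78 genes followed besides Zfp36 were newly called and none lost its call.

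Same-numbered samples showed no clear pairing. Their deviations from the group means correlated between −0.573 and 0.282 in 18 pairs, 4 of them over 0.1. With 3 libraries per group such correlations cannot exclude that same-numbered samples share an animal. With the replicate number as a block the interaction was called for 1 gene. The genotype difference was called under it for 1 gene in treated skin and 18 in tumors. With a block within genotype the interaction was called for 0 genes. Such a block cannot be told apart from the genotype, so it gives no count of genotype differences.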

Other observations

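The mock skin libraries, which entered the comparisons above only in the fit of all groups, add their levels of the called genes. On a scale shared by the 17 separate libraries Tbx1 measured 18.1, 5.75 and 5.53 CPM in fl/fl mock skin and 18.2 and 8.10 in ΔK14 mock skin. All 6 treated skin libraries lay above these on the same scale. Pfkfb3 measured 11.1, 17.6 and 17.3 CPM in fl/fl and 9.77 and 9.86 in ΔK14 mock skin, within or close to the range of treated skin.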
